A study of Mus musculus with 11 samples.

Results

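The genes described here are 8 genes of hepatic glucose output and adult liver glucose metabolism, chosen by name, with earlier results of these data known: G6pc, Pck1, Fbp1, Pcx, Slc37a4, Ppargc1a, Pklr and Gys2. All 8 were found among the 20893 genes of the deposited table, and all 8 were among the 14244 genes tested. They were measured by bulk RNA-seq of whole homogenized mouse livers, with 1 library per liver, in 11 livers. Control livers (n = 4) carried ROSA26-rtTA-IRES-EGFP, were otherwise labelled WT, and came from mice fed doxycycline for 7 days. Induced livers carried ROSA26-rtTA-IRES-EGFP together with tetYAP, and came from mice given doxycycline food for 3 days (n = 4) or 7 days (n = 3). All mice were on the C57BL/6 background, and their age is not given in the sources used here. In the study's model, Cre under the albumin promoter switches on rtTA, so that doxycycline turns on the YAP transgene in cells that have expressed albumin, chiefly hepatocytes, while the libraries hold the RNA of every cell of the liver. The 3-day livers differed from the controls in the length of doxycycline feeding as well as in the transgene.

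Between meals the liver makes glucose from lactate, amino acids and glycerol. Pyruvate carboxylase and phosphoenolpyruvate carboxykinase carry pyruvate past the irreversible step of glycolysis, fructose-1,6-bisphosphatase reverses another, and glucose-6-phosphatase with its transporter releases free glucose in the endoplasmic reticulum. Glucagon, acting through cAMP, raises transcription of several of these genes and insulin lowers it. Liver pyruvate kinase runs the opposite, glycolytic way, and liver glycogen synthase stores glucose as glycogen. The liver forms of several of these enzymes are features of the mature hepatocyte, whereas many other tissues use a second gene of the same family.

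YAP induction was first checked on its targets. Connective tissue growth factor (Ctgf) and Cyr61, classical YAP targets, were higher at 7 days than in controls by a log2 fold change of 3.49 and 3.27 (limma adjusted p = 1.25e-05 and 8.01e-06). After 3 days Ctgf stood at 1.41 (adjusted p = 0.0833) and Cyr61 at 1.99 (adjusted p = 0.0117) on the same scale, neither called, though every induced liver lay above every control. The row of Yap1 itself did not show the transgene, with a log2 fold change of 0.03 at 7 days (adjusted p = 0.917). The labelled tissue was borne out by its markers: the summed level of 7 hepatocyte markers was 1667 to 5377 eRPKM in control livers, 2114 to 2812 after 3 days and 1434 to 1604 after 7, with no marker at 0 in any liver. The unit, eRPKM, is the authors' count of exonic reads divided by gene length in kilobases and by the size of the library.

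The depth of the libraries bears on the most highly expressed genes. Reads on genes ranged from 1251396 to 5495697 in control libraries, from 2660233 to 3681416 in 3-day ones and from 5312486 to 5941357 in 7-day ones, so that every 7-day library was deep. Across the 11 libraries the depth differed 4.75-fold, yet the highest gene of each library stood at 1281 to 1501 reads per kilobase, and albumin (Alb) at 2417 to 3102 reads. Highly expressed genes therefore took a smaller eRPKM in deeper libraries. Between the shallowest control (control 4) and the deepest (control 2), reads on all genes rose 4.39-fold, but those on Alb rose 1.28-fold, on Fbp1 1.79-fold and on Pck1 1.88-fold. Reads on Slc37a4 and Pcx rose 3.18-fold and 3.19-fold, while those on G6pc, Gys2 and Pklr rose 4.06-fold, 4.10-fold and 4.94-fold. Reads on Ppargc1a, which were few, rose 10.7-fold, from 39 to 418. The handling of duplicate reads is not given in the sources used here. For Pck1 and Fbp1 the change in eRPKM at 7 days is therefore given beside that against the 2 deepest controls, with 3895224 and 5495697 reads, of which only the deeper was close in depth to the 7-day livers, and beside the ratio to that control alone.

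**Figure D1:**
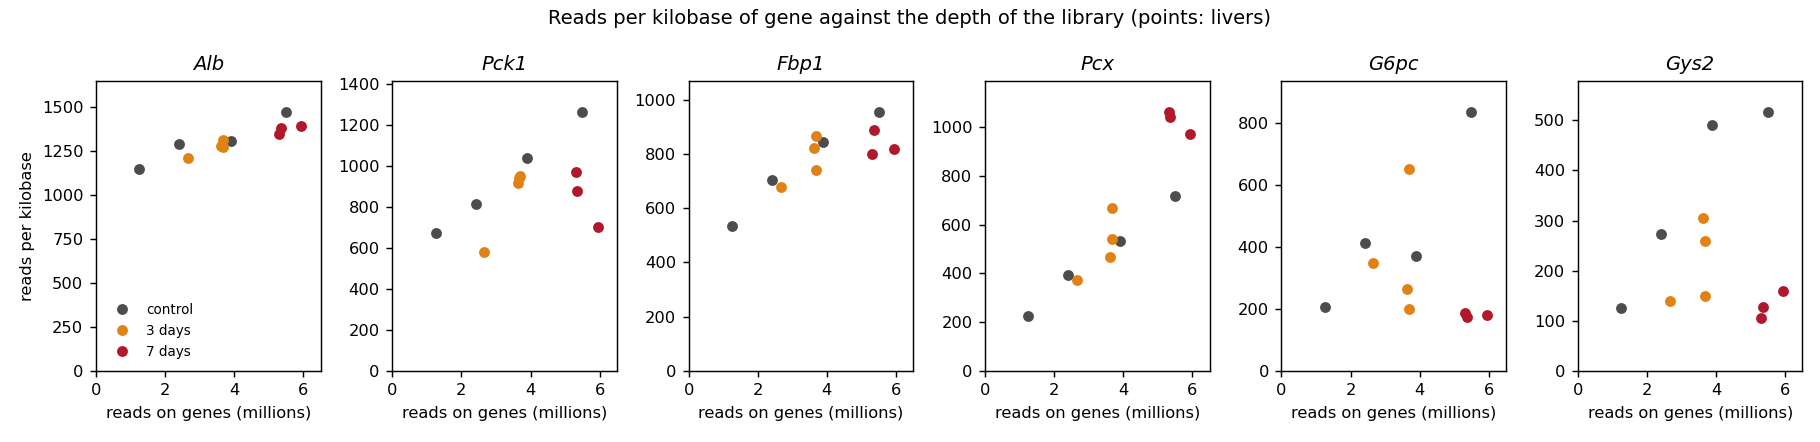
Reads per kilobase of gene (vertical axes, from 0) against the reads on genes of each library (horizontal axes) for Alb, Pck1, Fbp1, Pcx, G6pc and Gys2; each point is a liver, coloured by group. Alb is nearly flat from 1251396 to 5941357 reads, whereas the deep 7-day livers lie below every control for G6pc, below 3 of the 4 controls for Gys2, and above all other livers for Pcx.

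The bases before the start sites of these genes are shown because cAMP acts on several fasting genes through a short element near the start site. RefSeq start sites on GRCm38.p6 were available for 7 of the 8 genes, with 11 start sites in all, and the 250 bases before each were searched on both strands for 5 motifs. Gys2 had no entry in the table of start sites. The core of the cAMP response element (TGACG) lay 90 bases before the start site of Pck1, 61 bases before a start site of Slc37a4 and 49 bases before that of Ppargc1a. It was present before 17.8% of all 32851 start sites. Before another start site of Slc37a4 the core matched at 214 bases, which is the same site, and at 82 bases. An E-box (CACGTG; 6.02% of start sites) lay 248 bases before a start site of Pcx. The TEAD core (GGAATG; 12.6%), the FOXO core (GTAAACA; 3.17%) and the core of the HNF4A site (CAAAGT; 12.6%) had no match in these windows. None of the 5 motifs matched before G6pc, Fbp1 or Pklr. Each motif was searched in a single exact form, so the lack of a match does not show that a site is absent.

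The region before Pck1 (chr2:173152823-173153072, plus strand) and that before G6pc (chr11:101367466-101367715, plus strand) are printed whole, since both genes were lower at 7 days and only that of Pck1 held TGACG. Other forms of the cAMP response element were not searched, so G6pc having no match does not show that it lacks the element. For Slc37a4 (chr9:44396855-44396919, plus strand) and Ppargc1a (chr5:51567740-51567804, minus strand), whose levels were not called, the stretch around the TGACG core is given. For Slc37a4 that is the core at 61 bases. Sequences run 5′ to 3′ on the strand of the gene, and capitals mark the core in either orientation.
Pck1: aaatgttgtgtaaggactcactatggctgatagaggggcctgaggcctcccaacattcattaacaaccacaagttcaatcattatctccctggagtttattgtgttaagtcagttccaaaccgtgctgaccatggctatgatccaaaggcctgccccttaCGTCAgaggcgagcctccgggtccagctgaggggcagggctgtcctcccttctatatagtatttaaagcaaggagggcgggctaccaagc
G6pc: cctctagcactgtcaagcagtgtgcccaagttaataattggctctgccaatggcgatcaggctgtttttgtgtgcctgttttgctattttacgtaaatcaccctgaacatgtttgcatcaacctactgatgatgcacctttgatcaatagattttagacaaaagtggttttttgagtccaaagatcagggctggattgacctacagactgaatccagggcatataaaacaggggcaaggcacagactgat
Slc37a4: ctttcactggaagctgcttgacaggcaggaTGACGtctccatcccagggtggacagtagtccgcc
Ppargc1a: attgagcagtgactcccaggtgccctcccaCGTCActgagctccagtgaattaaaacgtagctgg

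In control livers the 8 genes spanned a wide range of level per length. Pck1 had the highest mean, 343 ± 137 eRPKM (SD, n = 4), followed by Fbp1 with 278 ± 111, and the ranges of the 2 genes overlapped. Pcx (152 ± 23.1) and G6pc (146 ± 34.9) did not differ beyond their spread, and neither did Slc37a4 (114 ± 22.4), Gys2 (108 ± 14.1) and Pklr (95.2 ± 20.7). The coactivator gene Ppargc1a stood far below the enzymes at 9.07 ± 3.21. At 7 days the order had changed: Pcx led with 186 ± 19.4 (n = 3), Pck1 and Fbp1 followed, and G6pc and Gys2 had moved below Pklr.

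At 3 days none of the 8 genes was called, against 0.0421% of all genes tested (6 genes, all higher). Calls required a limma p below 0.01 after Benjamini-Hochberg adjustment together with a log2 fold change beyond 0.5 in size. The median log2 fold change of the 8 genes was -0.16, beside 0.02 over all genes tested. At 7 days against control, 3 of the 8 genes were called, all lower (G6pc, Gys2 and Pck1), against 5.77% of all genes called lower and 23.8% called in either direction. Their median log2 fold change was -0.80, beside 0.26 over all genes. In the step from 3 to 7 days G6pc and Gys2 were called lower (5.31% of all genes called lower, 19.3% either way). The median of all genes at 7 days moved to 0.02 with median-ratio scaling and to -0.08 after quantile normalization, and the split of called genes moved with it, from 2561 higher and 822 lower to 1948 and 1281, and to 1857 and 1821.

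**Figure D2:**
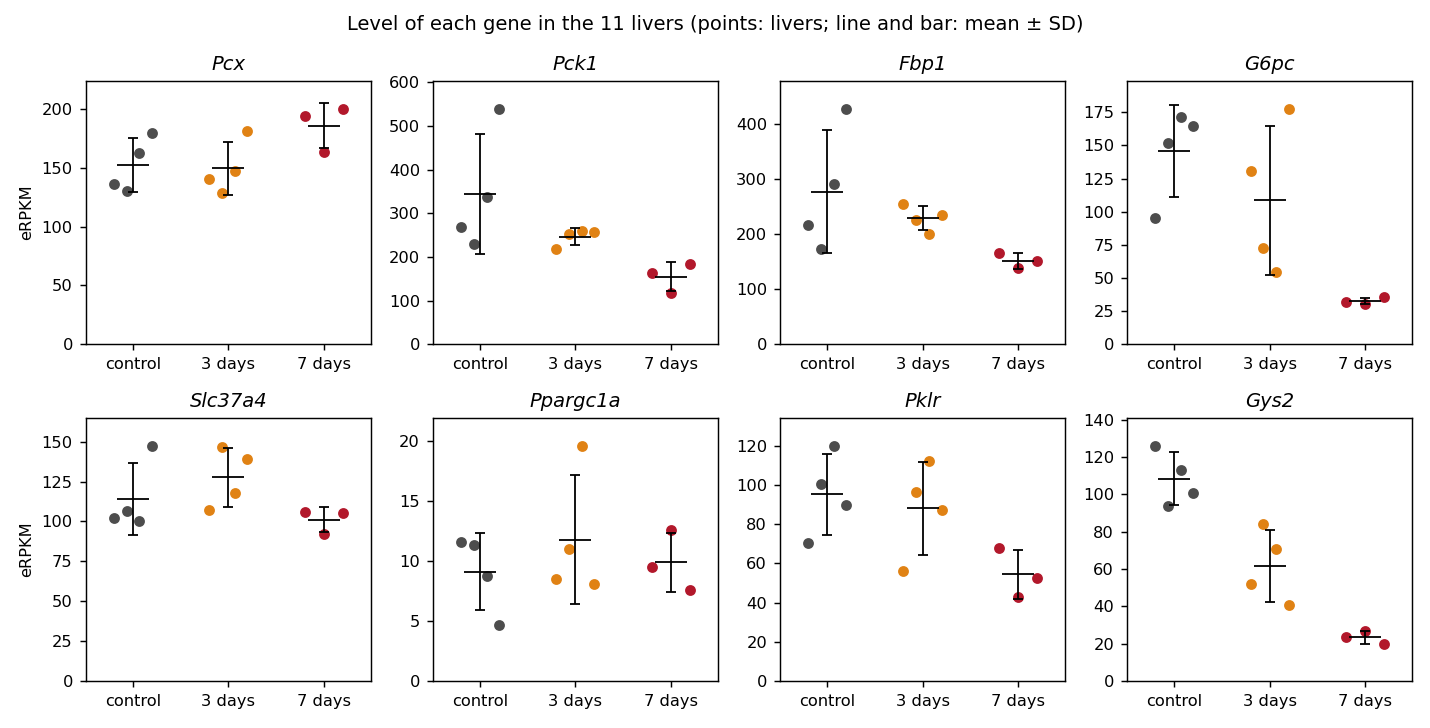
Level of each of the 8 genes (eRPKM, linear axes from 0) in control, 3-day and 7-day livers; points are livers, and the line and bar give the mean ± SD. G6pc and Gys2 at 7 days lie below every liver of the other groups, while Pcx in every 7-day liver lies above 3 of the 4 controls.

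G6pc had the lowest 7-day fold change of the genes of glucose output, and its partner transporter was not called. G6pc (ENSMUSG00000078650.2, mm9 chromosome 11, 101228875 to 101239217, plus strand) encodes the catalytic subunit of glucose-6-phosphatase. Its level was 94.9, 152, 172 and 165 eRPKM in control livers 1 to 4, then 130, 72.4, 54.5 and 177 after 3 days of induction, and 32.2, 30.3 and 35.4 after 7 days. All 3 livers at 7 days lay below every other liver, and of the 3-day livers 2 lay below every control, while the other two were close to the control range or inside it. The log2 fold change at 7 days was -2.11 (95% interval -2.85 to -1.37; limma adjusted p = 0.000443), a level 4.32-fold lower. At 3 days it was -0.54 (adjusted p = 0.523), and the step from 3 to 7 days was -1.57 (adjusted p = 0.00405). Against control 2 alone, whose depth was close to that of the 7-day livers, the 7-day mean was 4.66-fold lower. The 7-day call was missed with depth as a covariate and against the 2 deepest controls, each at a change of -1.87 (adjusted p = 0.0109 and 0.0104; range over all alternatives 5.56e-05 to 0.0109). The step from 3 to 7 days was called under 20 of 29 alternatives, and not without 3-day liver 1 (-1.43) or without any 1 of the 7-day livers (-1.63 to -1.52). Nor was it called with depth as a covariate (-1.39, adjusted p = 0.0268) or with quantile normalization and depth (-1.56, adjusted p = 0.0128). Among the libraries with more Xist than Ddx3y it was -1.58, not called (adjusted p = 0.0216).

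At 3 days the G6pc values split by a label, and how many of all genes split this way was not counted. The 3-day livers whose labels end in MF, a suffix that is not explained, were livers 1 and 4, with 130 and 177 eRPKM of G6pc, against 72.4 and 54.5 in the others. For Gys2 the same livers were the lower ones, with 52.2 and 40.6 against 83.9 and 70.5. At 7 days the liver with the suffix, liver 2, had the lowest G6pc (30.3) and the highest Gys2 (26.9), so both orders were opposite to those at 3 days. With the suffix as a covariate the 7-day calls of both genes held, while that of Pck1 was lost (-0.99, adjusted p = 0.0107).

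The transporter that feeds this enzyme was not called. Slc37a4 (ENSMUSG00000032114.7, chromosome 9, 44205182 to 44211046, plus strand) carries glucose-6-phosphate into the endoplasmic reticulum. Control livers 1 to 4 held 102, 107, 100 and 147 eRPKM. After 3 days of induction the values were 107, 147, 118 and 139, and after 7 days they were 106, 92.0 and 105. The groups overlapped, except that every 7-day liver lay below every 3-day liver. Its change at 7 days was -0.16 on the log2 scale (95% interval -0.53 to 0.22; adjusted p = 0.503) and turned to 0.28 after quantile normalization (adjusted p = 0.102).

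Pck1 (ENSMUSG00000027513.5, chromosome 2, 172978549 to 172984774, plus strand) encodes the cytosolic phosphoenolpyruvate carboxykinase, the classical control point of gluconeogenesis. Control livers 1 to 4 held 267, 230, 338 and 538 eRPKM. After 3 days of induction the values were 218, 253, 259 and 256, and after 7 days they were 163, 118 and 183. The 7-day livers lay below all other livers, and control 4, the shallowest library, was far above the rest. The log2 fold change at 7 days was -1.09 (95% interval -1.65 to -0.53; limma adjusted p = 0.00521), and that at 3 days -0.40 (adjusted p = 0.525). Like Alb, whose log2 fold change at 7 days was -0.88 (adjusted p = 0.0493), Pck1 took fewer reads per unit of depth in deep libraries. Against the 2 deepest controls only, the change of Pck1 was -0.70 (adjusted p = 0.0199), while that of Alb was -0.27. With log2 depth as a covariate it was -0.58 (adjusted p = 0.0478), and after quantile normalization -0.42 (adjusted p = 0.0476). In these settings the direction was the same, the size was smaller, and the call was lost. With median-ratio scaling the change was larger, -1.37, and just missed the threshold (adjusted p = 0.0102). The call was missed as well with log2 Xist as a covariate (-1.06, adjusted p = 0.0127), in a fit of the 7-day and control livers alone (-1.09, adjusted p = 0.0132), without control 3 (-1.07, adjusted p = 0.0137) and without any 1 of the 7-day livers (-1.22 to -0.91, adjusted p = 0.0103 to 0.0328). Against control 2 alone, of like depth, the 7-day mean was 1.48-fold lower. Ranked by level within its own library, Pck1 was gene 16 to 42 in control livers, 35 to 172 in 3-day livers and 59 to 207 in 7-day livers.

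Fbp1 (ENSMUSG00000069805.4, chromosome 13, 62966113 to 62989642, minus strand), the fructose-1,6-bisphosphatase of liver and kidney, was the one of the 8 genes whose reads rose least with depth among the controls. Control livers 1 to 4 held 217, 174, 292 and 428 eRPKM. After 3 days of induction the values were 256, 227, 201 and 235, and after 7 days they were 166, 138 and 151. Although the 7-day livers lay below all others, the nearest control, the deepest one, was close to them. Its change of -0.79 at 7 days was not called (adjusted p = 0.0244). It was -0.36 against the 2 deepest controls, -0.21 with depth as a covariate and -0.09 after quantile normalization, with adjusted p-values of 0.110, 0.168 and 0.328. Compared with control 2 alone, the 7-day mean was 1.15-fold lower. Without control 2, the deepest control, it was -0.99 and passed (adjusted p = 0.00472). Its rank within the library was 76 to 106 in controls and 89 to 136 at 7 days. The profiles nearest to that of Fbp1 over the 11 livers were those of Acaa2 and F2, with root mean square differences of 0.059 and 0.070 in log2 units. Depth was not adjusted for in that comparison.

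Pcx (ENSMUSG00000024892.8, chromosome 19, 4510472 to 4621752, plus strand) encodes pyruvate carboxylase, the entry step from pyruvate and also a source of oxaloacetate for the citric acid cycle. Its change was not called. Control livers 1 to 4 held 136, 130, 162 and 180 eRPKM. After 3 days of induction the values were 140, 129, 147 and 181, and after 7 days they were 194, 164 and 200. Of the 7-day livers, 2 were above every other liver and the other lay within the control range. The log2 fold change at 7 days was 0.29 (95% interval -0.07 to 0.66) (limma adjusted p = 0.188). The sign of this value was the same under all 29 other settings, from 0.02 with median-ratio scaling to 0.94 after quantile normalization, where it was called (adjusted p = 0.00011). Within its own library Pcx was gene 294 to 399 among controls, 222 to 463 among 3-day livers and 35 to 48 among 7-day livers. Against control 2, of like depth, the 7-day mean was 1.43-fold higher.

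Ppargc1a (ENSMUSG00000029167.7, chromosome 5, 51845488 to 51958964, minus strand) encodes PGC-1alpha, a coactivator that fasting induces and that acts on the promoters of Pck1 and G6pc. Control livers 1 to 4 held 11.5, 11.3, 8.75 and 4.66 eRPKM. After 3 days of induction the values were 8.46, 10.99, 19.6 and 8.03, and after 7 days they were 9.45, 12.5 and 7.59. All 3 groups overlapped, and the lowest value, in control 4, rested on 39 reads. The log2 fold change was 0.34 at 3 days (95% interval -0.35 to 1.04) and 0.16 at 7 days (-0.59 to 0.92), with adjusted p-values of 0.705 and 0.740. The sign at 7 days was not stable, at -0.10 with median-ratio scaling, -0.39 after quantile normalization and -0.11 without control 4.

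Of the enzymes outside gluconeogenesis proper, liver pyruvate kinase was lower without being called. Pklr (ENSMUSG00000041237.6, chromosome 3, 88940064 to 88950706, plus strand) catalyses the last step of glycolysis, and its exons overlap those of Hcn3 on the other strand, from which these unstranded reads cannot separate it. Control livers 1 to 4 held 70.6, 101, 120 and 89.7 eRPKM. After 3 days of induction the values were 56.1, 96.6, 113 and 87.3, and after 7 days they were 67.7, 42.8 and 52.5. The 7-day livers lay below every control, the highest of them only just. On the log2 scale the change at 7 days was -0.80 (95% interval -1.34 to -0.27; limma adjusted p = 0.0220). With median-ratio scaling it was -1.08 and passed the threshold (adjusted p = 0.00631), as it did without 3-day liver 1 (-0.80, adjusted p = 0.00839), with log2 Xist as a covariate (-0.98, adjusted p = 0.00724) and among the libraries with more Xist than Ddx3y (-1.03, adjusted p = 0.0085). The change was called under 5 of 29 alternatives. After quantile normalization and against the 2 deepest controls it was -0.65 (adjusted p = 0.0619 and 0.134). With depth as a covariate it was -0.85 (adjusted p = 0.0791).

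Glycogen synthase showed the clearest course of the 8 genes. Gys2 (ENSMUSG00000030244.7, chromosome 6, 142371133 to 142421629, minus strand), the liver enzyme that lengthens glycogen chains, held 126, 94.0, 113 and 101 eRPKM in control livers 1 to 4, 52.2, 83.9, 70.5 and 40.6 at 3 days, and 23.7, 26.9 and 19.9 at 7 days. The 3 groups did not overlap at any point. At 3 days its log2 fold change of -0.85 (95% interval -1.30 to -0.40) was the largest of the 8 genes, yet it was not called over all genes (adjusted p = 0.106). At 7 days the change was -2.18 (95% interval -2.67 to -1.70; adjusted p = 1.88e-05), a level 4.55-fold lower, and the step from 3 to 7 days was -1.33 (adjusted p = 0.000745). Both of the latter calls held under all 29 other settings. Within its library Gys2 was gene 392 to 768 in control livers and gene 3453 to 4725 in 7-day livers.

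**Figure D3:**
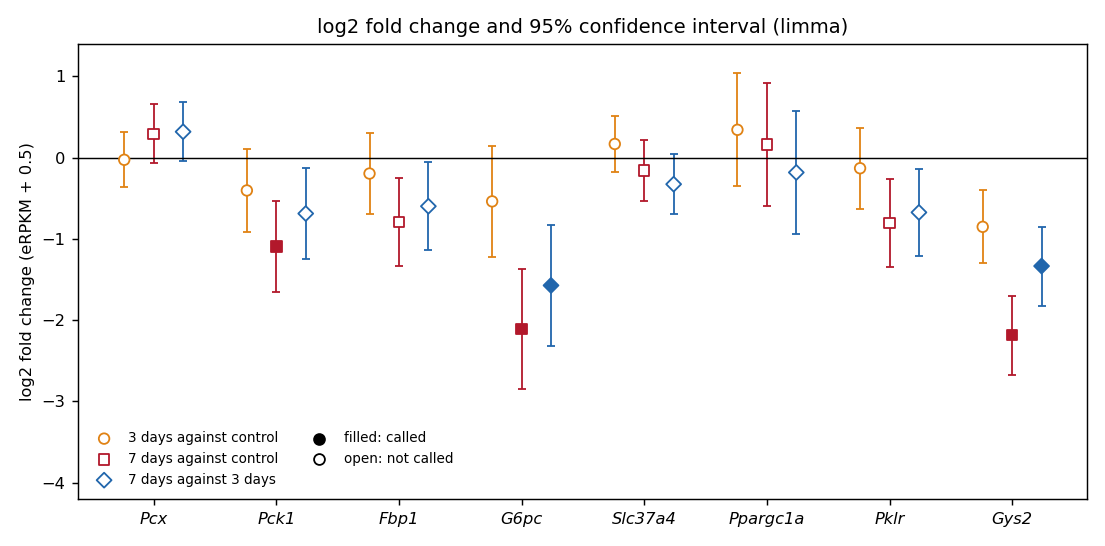
Log2 fold change of each of the 8 genes (vertical axis, on log2(eRPKM + 0.5)) with its 95% interval, for both induction times against control and for the step between them; filled symbols were called. At 7 days against control G6pc, Gys2 and Pck1 are filled and below 0; the largest of the 3-day values, -0.85 for Gys2, is open.

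Counted by overlap, 5 of the 8 genes (G6pc, Gys2, Pck1, Fbp1 and Pklr) were lower in every 7-day liver than in every control, against 13.3% of all genes tested. At 3 days against control this held for Gys2 alone (2.25% of genes), and at 7 days against 3 days for G6pc, Gys2, Pck1, Fbp1 and Slc37a4 (13.8%). Among hepatocyte markers, Alb, Ttr, Apob, Ahsg and Fgb were also lower in every 7-day liver than in every control. Apoa1 and Trf overlapped with controls. Every 7-day library was deep, and highly expressed genes such as Pck1 and Fbp1 took a smaller eRPKM in deeper libraries. None of the 8 was higher in every liver of a group, where 3.38% of genes were at 3 days and 36.7% at 7 days against control, and 31.3% at 7 days against 3 days. The exact two-sided permutation test over livers could not go below p = 0.0286 with these group sizes. G6pc and Gys2 reached that value at 7 days against control, Gys2 also at 3 days, and Pck1, Fbp1 and Gys2 in the step from 3 to 7 days, but no gene stayed under 0.05 after adjustment over the 24 tests (lowest adjusted p = 0.114).

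Other changes went along with the 7-day values. Hepatocyte markers stood at log2 fold changes of -1.40 to -0.68 at 7 days, with 1 of 7 called lower (transthyretin, Ttr). G6pc and Gys2 lay below that range, Pck1, Fbp1 and Pklr lay inside it, and Slc37a4, Ppargc1a and Pcx above it. Against the 2 deepest controls the markers ran from -0.96 to -0.08, and G6pc and Gys2 stood at -1.87 and -2.20. With depth as a covariate the markers ran from -0.79 to 0.10 (median -0.07), and after quantile normalization from -0.79 to 0.16 (median -0.02). The marker range therefore depended on how scale and depth were treated. The summed level of 4 macrophage markers was 142 to 293 eRPKM in controls and 508 to 579 at 7 days, with 3 of 4 called higher. That of 5 endothelial markers was 53.4 to 105 and 144 to 175, with 2 of 5 called higher, and that of 5 biliary markers 37.5 to 49.0 and 61.5 to 111, with 1 of 5 called higher. Stellate cell markers were at 144 to 207 and 103 to 121, and lymphocyte markers at 2.46 to 6.66 and 2.97 to 7.22, with none called. Within the biliary sum Spp1 alone had a mean of 38.7 eRPKM in controls and 67.4 at 7 days. The called biliary gene, Krt7, went from a mean of 0.40 to 1.92 eRPKM. The part of these cell types in the results was not tested, and in whole liver fewer hepatocytes cannot be told apart from less RNA per hepatocyte. By reads on Xist and the Y-linked gene Ddx3y, 2 of 4 controls, 2 of 4 livers at 3 days and 3 of 3 at 7 days were female. Among the libraries with more Xist than Ddx3y, the 7-day changes were -2.29 for G6pc, -2.12 for Gys2 and -0.87 for Pck1, the last no longer called (adjusted p = 0.0261), and Pklr, at -1.03, was called there.

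**Figure D4:**
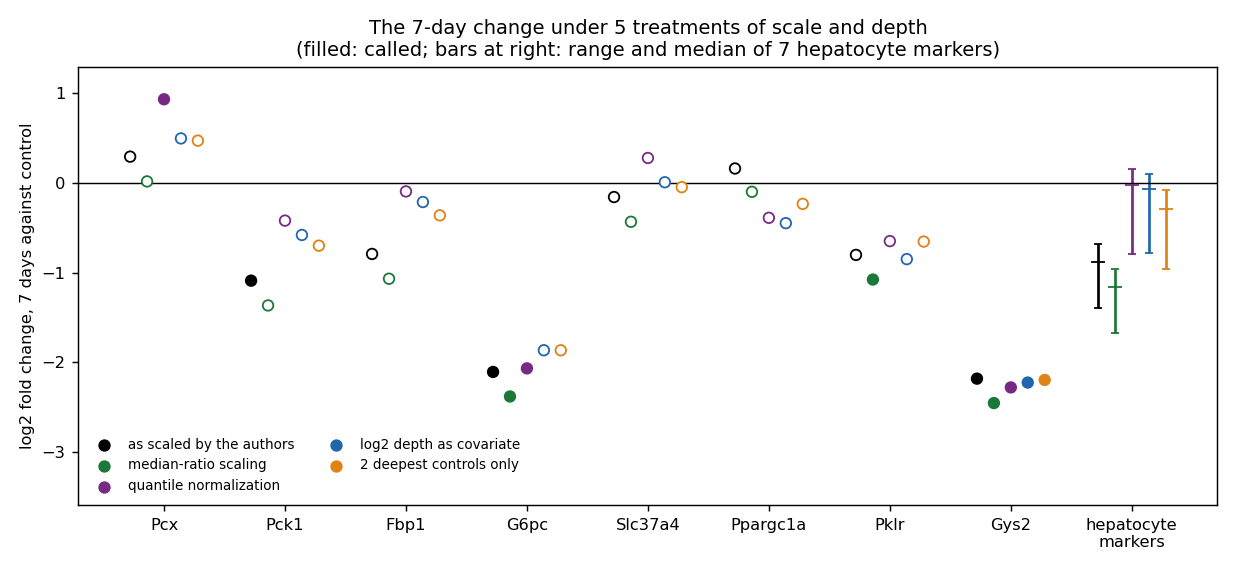
Log2 fold change at 7 days against control (vertical axis) of each of the 8 genes under 5 treatments of scale and depth, with the range and median of 7 hepatocyte markers at the right; filled symbols were called. G6pc and Gys2 stay between -2.46 and -1.87 in all 5, while Pck1 and Fbp1 move toward 0 together with the hepatocyte markers once scale or depth is treated by quantile normalization, a covariate or the choice of deep controls.

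For 6 of the 8 genes a second gene of the same family was read in the same livers. Muscle-type pyruvate kinase (Pkm) was called higher at 7 days (log2 fold change 1.69, adjusted p = 8.08e-05), from 17.0 ± 5.21 eRPKM in controls to 54.4 ± 8.87. The mitochondrial carboxykinase Pck2 was called higher as well (1.71, adjusted p = 0.00196), from 1.78 ± 0.797 to 6.61 ± 1.13, but the change shrank and the call was lost with depth as a covariate (1.10) and against the 2 deepest controls (1.27), and after quantile normalization it was 1.09, still called. G6pc3, Fbp2 and Gys1 had log2 fold changes of 1.13, 1.20 and 0.99 and were not called (adjusted p = 0.0298, 0.0311 and 0.0364), and Ppargc1b stood at -0.28. Levels were low: G6pc3 had 4.25 ± 1.51 eRPKM in controls and 9.68 ± 1.95 at 7 days, and Gys1 1.53 ± 0.88 and 3.29 ± 0.21. Fbp2 was near the floor, with 0.30 ± 0.29 in controls and 1.44 ± 1.16 at 7 days, where the highest liver had 2.77. Gys1 was called in the step from 3 to 7 days (1.33, adjusted p = 0.00999), but its exons overlap those of Ruvbl2 on the other strand. None of the 6 was called at 3 days.

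The share of the summed level of both genes that fell to the member of the 8 differed between the pairs. Pklr made up 84.8% ± 3.74 of the pyruvate kinase level in controls, 85.6% ± 3.999 at 3 days and 49.7% ± 7.62 at 7 days. G6pc made up 97.0% ± 1.31 of its pair with G6pc3 in controls, 94.8% ± 4.54 at 3 days and 77.3% ± 2.18 at 7 days. Gys2 went from 98.6% ± 0.86 of its pair with Gys1 to 98.3% ± 0.552 and 87.5% ± 2.39. Pck1 stayed at 93.8% or more of its pair with Pck2 in every liver, and Fbp1 at 98.0% or more of its pair with Fbp2. Ppargc1a went from 62.1% ± 2.90 of its pair with Ppargc1b in controls to 84.6% ± 7.51 at 3 days and 69.4% ± 3.96 at 7 days, higher than in controls at both times. These shares are descriptions of levels per length, without a test. They come from whole liver, where the summed macrophage and endothelial markers were also higher at 7 days. Which cells held each gene of a pair was not tested.

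Genes around the 8 enzymes were taken from 5 lists with 71 genes, of which 70 were found and tested. At 3 days none was called. At 7 days 17 of the 70 were called, 7 higher and 10 lower, beside 18% and 5.77% of all genes, and the median log2 fold change of the 70 was 0.04 against 0.26 over all genes. All 17 kept their direction after quantile normalization, with depth as a covariate and against the 2 deepest controls, in which 15, 7 and 10 of them were called. The 7 that stayed called with depth as a covariate, Aqp9, Gcgr, Nr4a1, Pkm, Ppp1r3c, Pygl and Sds, were also called in the other two settings. The other 10 lost the call in at least 1 of the 3.

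**Figure D5:**
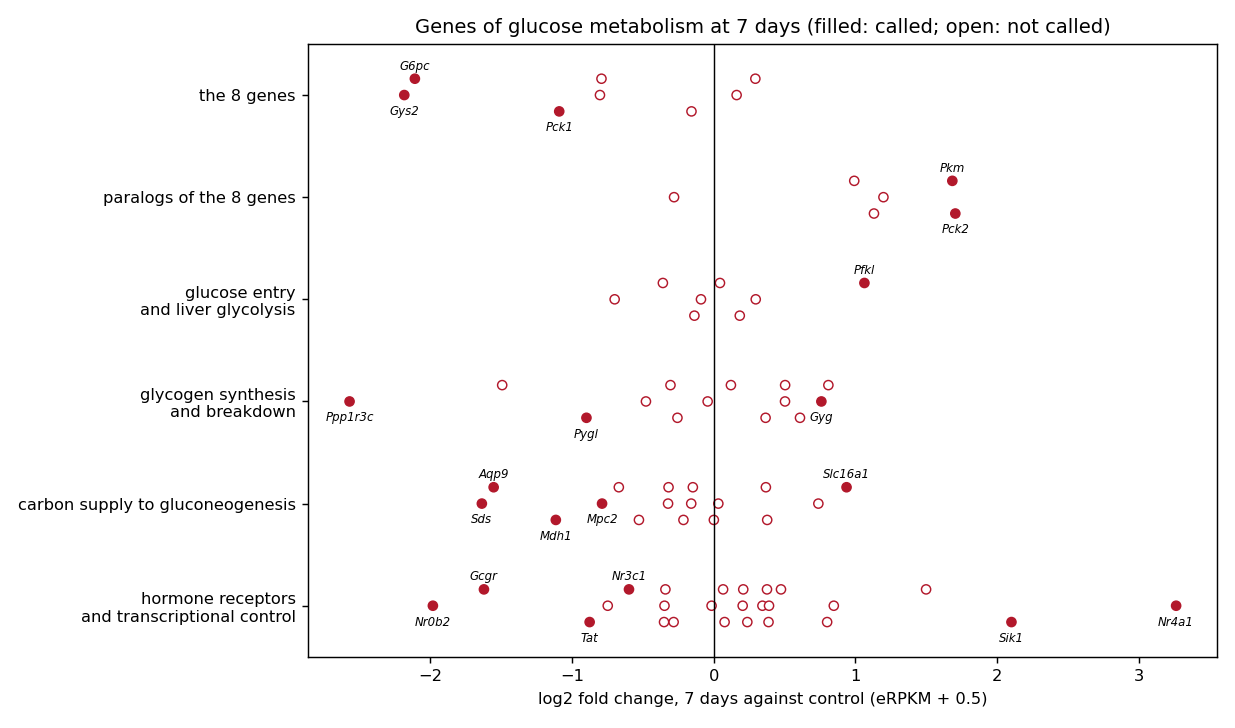
Log2 fold change at 7 days against control (horizontal axis, on log2(eRPKM + 0.5)) of the 8 genes and of 70 further genes in 5 lists; each circle is a gene, filled and named where called. Among hormone receptors and regulators the values run from -1.98 (Nr0b2) to 3.27 (Nr4a1).

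In the handling of glycogen, Ppp1r3c, a subunit that brings protein phosphatase 1 to glycogen, was called lower by a log2 fold change of -2.57 (adjusted p = 3.34e-05), from 39.8 ± 6.53 eRPKM in controls to 6.23 ± 0.635 at 7 days. Liver glycogen phosphorylase (Pygl), which breaks glycogen down, was lower by -0.90 (adjusted p = 0.00037). Glycogenin (Gyg), the primer of glycogen, was higher by 0.76, a call lost after quantile normalization (0.31), with depth as a covariate (0.49) and against the 2 deepest controls (0.56). The other 11 of 14 genes were not called, among them Ppp1r3g at -1.49 (adjusted p = 0.0289).

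In glucose entry and glycolysis 1 of 8 genes was called, the liver phosphofructokinase Pfkl, which was higher by 1.06 (adjusted p = 0.00488; 10.4 ± 1.89 against 22.2 ± 3.24 eRPKM). The other 7 were not called, among them the glucose transporter Slc2a2, with a log2 fold change of -0.09, and Mlxipl, the carbohydrate response factor ChREBP, with -0.36.

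Of 17 genes that supply carbon to gluconeogenesis, 4 were called lower and 1 higher. Serine dehydratase (Sds), which makes pyruvate from serine, was lower by -1.64 (adjusted p = 5.24e-05; 154 ± 28.5 against 48.8 ± 2.26 eRPKM). The glycerol channel Aqp9 was lower by -1.55 (adjusted p = 7.14e-05), cytosolic malate dehydrogenase (Mdh1) by -1.11 and the mitochondrial pyruvate carrier subunit Mpc2 by -0.79. The Mdh1 call was lost with depth as a covariate (-0.55) and against the 2 deepest controls (-0.73), and after quantile normalization the value was -0.70, still called. The lactate and pyruvate transporter Slc16a1 was higher by 0.94 (adjusted p = 0.00134). The mitochondrial malate dehydrogenase gene Mdh2 stood at 0.00 and the alanine aminotransferase gene Gpt at -0.32.

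Of 25 hormone receptors and regulators, 4 were called lower and 2 higher. The glucagon receptor (Gcgr) had 84.2 ± 7.82 eRPKM in controls, 83.6 ± 11.5 at 3 days and 27.1 ± 3.34 at 7 days, a log2 fold change of -1.62 (adjusted p = 9.69e-06). The corepressor Nr0b2 (SHP) was lower by -1.98, the glucocorticoid receptor (Nr3c1) by -0.60 and tyrosine aminotransferase (Tat), a classical glucocorticoid target, by -0.88. The Tat value was -0.25 after quantile normalization and -0.47 with depth as a covariate, not called in either, and -0.63 against the 2 deepest controls, where it was called. The nuclear receptor Nr4a1, an immediate early gene, was higher by 3.27 (adjusted p = 8.52e-05; 1.11 ± 0.41 against 17.3 ± 10.1 eRPKM), and Sik1, a cAMP-induced kinase, by 2.10 (adjusted p = 0.0074). The insulin receptor (Insr, -0.28), Foxo1 (0.34), Creb1 (-0.01), Crtc2 (0.21) and Hnf4a (-0.35) were not called. In the step from 3 to 7 days Igfbp1, a fasting-induced binding protein, was called higher by 2.58 and Irs2 by 1.60, while Cebpa was called lower by -0.97. Against control, Igfbp1 and Irs2 stood at 0.472 and 0.574 times the control level at 3 days and at 2.83 and 1.74 times that level at 7 days, none of them called (adjusted p = 0.471, 0.368, 0.0657 and 0.101).

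The genes whose profile over the 11 livers was most like that of each of the 8 were sought among 12569 genes. For G6pc they were Lect2 and Hacl1, with root mean square differences of 0.295 and 0.319 in log2 units, and for Gys2 Adh7 and Hal, with 0.238 and 0.295. For Pck1 they were Hpd and Adh1 (0.147 and 0.151), both highly expressed hepatocyte genes. Pcx was nearest to 5430405H02Rik and Ctsb (0.109 and 0.137), Slc37a4 to Gstk1 and Atox1 (0.101 and 0.108), Pklr to Gamt and Acat2 (0.154 and 0.185), and Ppargc1a to Tfdp2 and BC052040 (0.197 and 0.201). None of the 8 genes was among the nearest to another. The mean level of 5430405H02Rik was 1.42 eRPKM. Profiles were compared on eRPKM without adjustment for depth, so a shared dependence on depth was not removed.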

How the data were processed

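Total RNA of whole livers was sequenced (TruSeq RNA Sample Prep Kits v2). The deposited values are eRPKM, a kind of RPKM that the authors made from reads aligned to mm9 with TopHat2 2.0.8; featureCounts 1.4.5-p1, SAMtools and DESeq2 are named in the submitters' processing notes. The authors' DESeq2 columns (mean, fold change, adjusted p) were not used. Whole reads were recovered from the steps of the eRPKM: all 177553 non-zero values lay within 0.1 reads of a whole number. The members and lists were chosen with earlier results of these data known.

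Genes reaching 0.5 eRPKM in 3 or more libraries were fitted with limma 3.58.1 (R 4.3.3; trend) on log2(eRPKM + 0.5), which understates changes of low genes, with the 3 groups in 1 fit; the fit was tested on simulated reads. The 8 members had 39 to 4673 reads per liver. Single members were tested with exact permutation tests. All 8 members were named, besides every called list gene and, otherwise, up to 4 genes per list with the largest 7-day change. Slc2a2, Mdh2, Gpt, Insr, Foxo1, Creb1, Crtc2 and Hnf4a were named besides, after their values were seen; single genes of the glycolysis list that the rule would name are not reported here. Exon overlaps were checked for the members and their paralogs except Pkm. Nothing says that replicates share a litter or batch, and the correlation of deviations of same-numbered livers ran from -0.22 to 0.27, so numbers were not used as pairs. Alternatives covered pseudocount, filter, scaling, model, covariates, sex, single livers, limma-voom on recovered reads and, chosen after seeing the data, the 2 deepest controls and quantile normalization with depth. Positions are from GENCODE M1 (mm9), start sites from RefSeq (GRCm38.p6). Python 3.11.15 was used.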

Additional observations from a re-analysis of the deposited data

Results flagged for a closer look

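Pck1 at 3 days had 1 liver far from the others: liver 1 (218 eRPKM) stood below the other three, with a gap to its neighbour of 0.855 of the group's range. Slc37a4 in controls had the same feature at the upper end, where control 4, the shallowest library, had 147 eRPKM and the gap was 0.865 of the range. Both gaps exceed the 95% limit of Dixon's test for 4 livers, which chance passes in about 1 of 20 groups, and 16 groups were examined.

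The effect of induction differed between 7 and 3 days for G6pc, by a log2 difference of -1.57, and for Gys2, by -1.33, both tested as 7 days against 3 days in limma (adjusted p = 0.00405 and 0.000745). Reads on genes did not overlap between these groups, at 2660233 to 3681416 after 3 days and 5312486 to 5941357 after 7. With depth as a covariate G6pc was no longer called (-1.39, adjusted p = 0.0268), while Gys2 was (-1.37, adjusted p = 0.00367).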

How the results depend on the processing

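Of the 24 log2 fold changes of single members, those of Gys2 and G6pc at 7 days against control kept their direction under all 29 alternatives and stayed called under 29 and 27 of them; Pck1 stayed called under 16. Of 696 member values under alternatives, 28 reversed, 24 lost the call, 14 gained it and 630 did neither. The causes were not tested. Settings with fewer livers, or with covariates, also leave fewer degrees of freedom, and the part of this in the changes was not tested. The settings named 2 deepest controls and quantile normalization with depth were chosen after seeing the data.

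Members called at 7 days against control numbered 3, and 1 with log2 depth as covariate or with the 2 deepest controls, 5 at an adjusted p under 0.05 with any fold, and 2 to 4 without 1 liver. Of 14244 genes tested, 3383 were called in the main fit, 1676 with depth and 5390 at an adjusted p under 0.05. With the 2 deepest controls 1985 of 14076 genes were called, and without 1 liver 1978 to 3682 genes. For the step from 3 to 7 days members called numbered 2, and 1 with the replicate block, with depth or among libraries with more Xist than Ddx3y, 4 with the 2 deepest controls, and 1 to 2 without 1 liver (1 without 3-day liver 1 or any of the 7-day livers). Of all 14244 genes, 2753 were called in that step, 1981 with the replicate block and 1679 with depth. Among libraries with more Xist 1467 of 13844 were called, and with the 2 deepest controls 2929 of 14076. The replicate numbers are not known to pair livers.

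Pathway genes called at 7 days against control numbered 17, and 11 with log2 Xist, 7 with depth, 9 among libraries with more Xist, 10 with the 2 deepest controls, 11 with quantile normalization and depth, and 9 to 17 without 1 liver (10 without control 3, 7-day liver 1 or 7-day liver 3, and 9 without 7-day liver 2). Of all 14244 genes, 2706 were called with log2 Xist and 2023 with quantile normalization and depth. Among libraries with more Xist 2169 of 13844 were called. For the step from 3 to 7 days pathway genes called numbered 16, and 10 with the replicate block, 9 with log2 Xist, 8 with depth, 7 among libraries with more Xist, 26 at an adjusted p under 0.05, 8 with quantile normalization and depth, and 7 to 21 without 1 liver (7 without 7-day liver 1 or 3, 8 without 7-day liver 2 or 3-day liver 1, 10 without 3-day liver 4). Of all 14244 genes, 1884 were called in that step with log2 Xist, 5085 at an adjusted p under 0.05 and 1868 with quantile normalization and depth. At 3 days none of the members or pathway genes was called under any alternative; at an unadjusted p under 0.05 limma had 1 of the 8 members (Gys2).

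Reversed values, none of them called, were these. Against control at 3 days, Pcx (-0.03) turned to 0.028 with depth, 0.17 among libraries with more Xist, 0.15 with the 2 deepest controls and up to 0.059 without 1 liver (lowest -0.12), Fbp1 (-0.19) to 0.24 with the 2 deepest controls and 0.040 without control 4 (lowest -0.39), Ppargc1a (0.34) to -0.051 with the 2 deepest controls, and Pklr (-0.13) to 0.14 with the MF suffix, 0.019 with the 2 deepest controls and 0.071 without 3-day liver 1 (lowest -0.26). At 7 days against control, Slc37a4 (-0.16) turned to 0.28 after quantile normalization, 0.0085 with depth and 0.22 with both. Ppargc1a (0.16) turned to -0.10 with median-ratio scaling, -0.39 after quantile normalization, -0.046 with the replicate block, -0.45 with depth, -0.043 among libraries with more Xist, -0.23 with the 2 deepest controls, -0.74 with quantile normalization and depth, and ran from -0.11 to 0.33 without 1 liver. From 3 to 7 days, Slc37a4 (-0.33) turned to 0.13 after quantile normalization and 0.081 with depth as well, and Ppargc1a (-0.18) ran from -0.36 to 0.085 without 1 liver. Ppargc1a had 39 reads in control 4.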
